A study of Mus musculus with 8 samples.

Results

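DNA replication genes were read here in blood stem and progenitor cells of mice heterozygous for Jak2V617F, a mutation that leaves the kinase Jak2 active without its cytokine and is carried by many myeloproliferative neoplasms, and in wild type cells. The set holds genes of replication licensing, the replication fork and nucleotide supply, chosen by name rather than by their values. Of 44 genes listed, 43 were matched to a probe set that names a single gene, among 18193 genes on the array, and where a gene had several probe sets the brightest on average was used. Chaf1a was not matched and was not analysed here. The 8 arrays were hybridised with RNA of 4 heterozygous Jak2V617F mice and of 4 wild type mice, all C57BL/6, and each array holds lineage-low, Sca1-positive and cKit-high (LSK) cells sorted by flow cytometry. The age of the mice and the construct that carries the mutation are not given in the sources used here. Values are log2 intensities, and every change is Jak2V617F minus wild type. In such bulk samples, fewer cells of a type and less RNA per cell cannot be told apart.

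A chromosome is licensed for replication in G1, when the origin recognition complex, Cdc6 and Cdt1 load the ring of Mcm2 to Mcm7 onto DNA. In S phase Cdc45 and the GINS complex join that ring to make the active helicase, and the polymerases, the clamp Pcna and its loader follow behind it. Many of these genes are induced together by E2F transcription factors when cells leave quiescence, so their transcripts are widely read as a sign of cycling. Stem cells in the LSK compartment are mostly quiescent, while the multipotent progenitors sorted with them cycle.

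The promoters of several of these genes carry the binding sequence of E2F factors close to the start of transcription. Whether that sequence has a part in the values of these genes in each mouse was not tested. Promoter windows of 300 bases were found for 36 of the 44 genes in the RefSeq table of build GRCm38.p6. An E2F-type sequence, TTTNNCGC with C or G at each N, read on both strands, was present in 14 of these 36 genes (38.9%), against 2.60% of the 27025 genes in that table. A CCAAT box was present in 22 of the 36 genes (61.1%), against 41.1% of all genes, and a TTTGAA element in 4 (11.1%), against 20.2%. A match is a description of the letters only. The stretches below lie before the start, run 5′ to 3′ on the strand of the gene and have E2F-type matches in capitals. Only that of Mcm7 came from the rule for named genes, and the other 4 were added after the values were seen as the remaining licensing and Mcm2 to Mcm7 genes with a match before the start.
Orc1 (chr4:108579407-108579453, plus strand): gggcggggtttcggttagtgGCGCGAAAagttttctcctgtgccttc
Cdc6 (chr11:98907993-98908040, plus strand): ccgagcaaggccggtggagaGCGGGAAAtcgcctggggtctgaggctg
Mcm5 (chr8:75109336-75109387, plus strand): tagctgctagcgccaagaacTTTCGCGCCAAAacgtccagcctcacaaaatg
Mcm6 (chr1:128359725-128359835, minus strand): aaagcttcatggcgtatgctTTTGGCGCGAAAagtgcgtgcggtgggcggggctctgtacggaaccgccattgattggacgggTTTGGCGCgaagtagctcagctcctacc
Mcm7 (chr5:138172021-138172068, minus strand): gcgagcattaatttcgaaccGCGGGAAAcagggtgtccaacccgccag
The Mcm6 stretch holds 3 matches, and its first capital run is a pair that overlaps on opposite strands, as is that of Mcm5. The Orc1 match begins 27 bases before the start, and Mcm7 has a further match after its start that is not shown.

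Replication transcripts were abundant in LSK cells of both genotypes and differed little between them. Mean log2 intensity per gene lay between 9.53 and 14.65, with a median of 12.72, and all 43 genes were above the median of the probe set means (7.11). With the brightest probe set taken in the same way, 10969 of all 18193 genes reached that level. None of the 43 passed limma's Benjamini-Hochberg threshold of 0.05, adjusted over all 18193 genes, at which 0.165% of all genes were called. The smallest adjusted p was 0.226, for Chaf1b. Before adjustment, 1 of the 43 genes (Chaf1b, higher) had a limma p under 0.05, against 17.2% of all genes. That count was 0 without Jak2V617F array 1 or wild type array 3, against 15.3% and 12.2% of all genes. It was 4 without Jak2V617F array 2 or 3, against 17.8% and 16.4% of all genes. Arrays of the 2 genotypes did not overlap for 1 gene, Rfc2, against 10.1% of all genes (6.82% higher and 3.33% lower in Jak2V617F cells).

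The absence of calls came with narrow intervals. The limma 95% interval of the change lay within 1.5-fold in either direction for 42 of the 43 genes, and within 2-fold for all 43. Tyms, which makes thymidylate, was the exception at 1.5-fold, with an interval from -0.64 to 0.29 on the log2 scale. The highest upper bound was 0.54 (1.45-fold), for Chaf1b. The changes ran from -0.17 to 0.30 with a median of 0.09, and 24 lay within 0.1 of 0. Most pointed the same way: 35 of 43 genes were above 0, against 62.6% of all genes. The median change over all genes was 0.05, and 26 of the 43 genes lay above it. With dim genes left out, which removes none of the 43, the median over the remaining genes was 0.015.

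**Figure D1:**
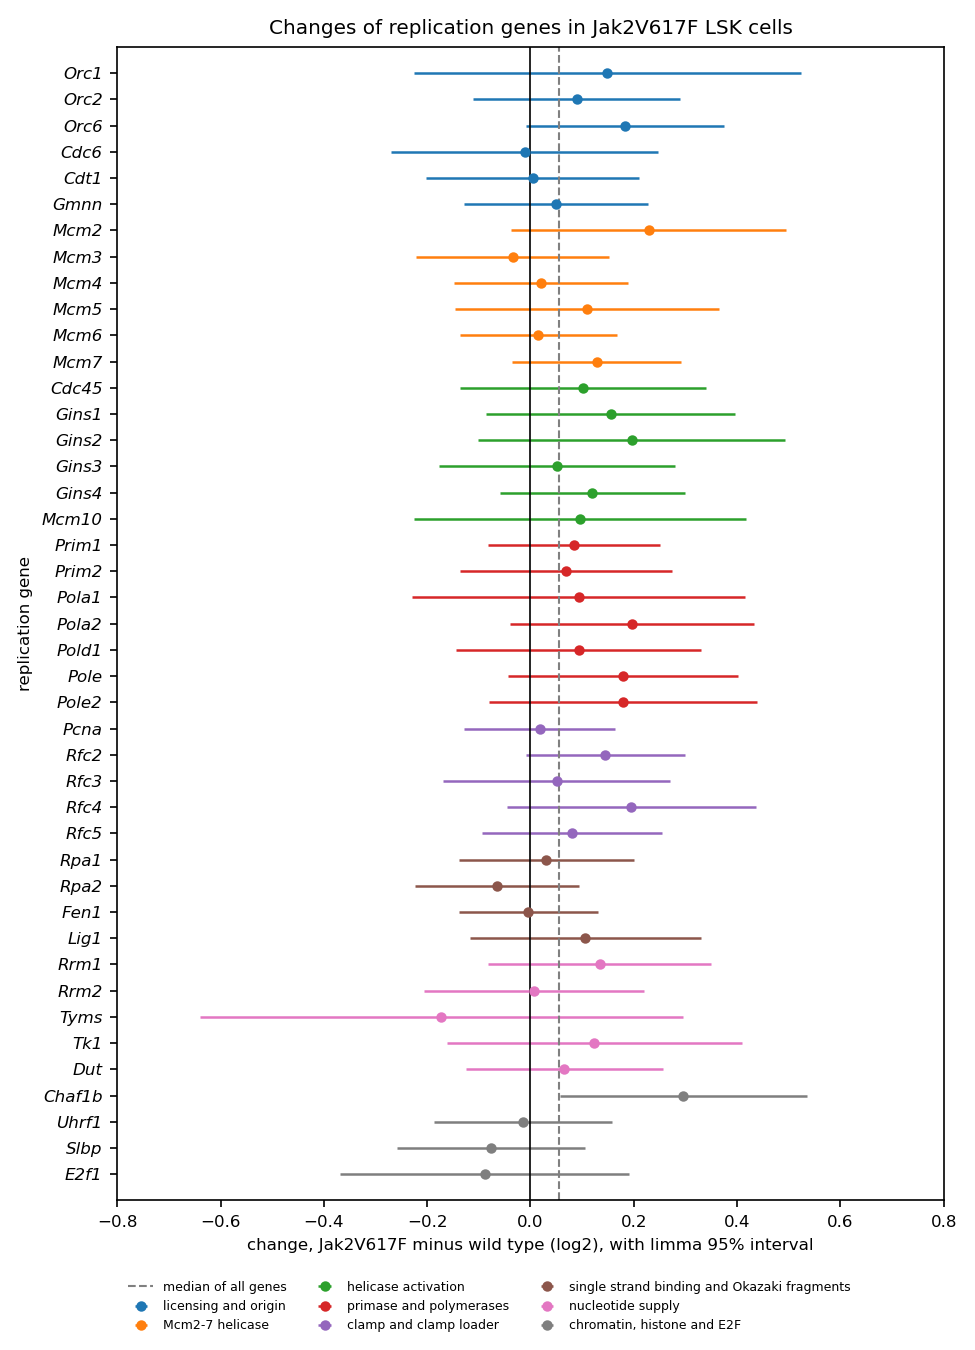
Change of each of the 43 replication genes in log2 units, Jak2V617F minus wild type, with limma 95% intervals and colours for roles. Points run from -0.17 (Tyms) to 0.30 (Chaf1b), the dashed line is the median of all genes at 0.05, and only the interval of Chaf1b leaves out 0.

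Larger than the difference between genotypes was the spread among mice of the same genotype, and it ran through nearly all replication genes at once. The mean over the 43 genes was 12.81, 12.53, 12.63 and 12.73 in Jak2V617F arrays 1 to 4, against 12.47, 12.65, 12.59 and 12.69 in wild type arrays 1 to 4. The groups overlapped, since wild type arrays 2, 3 and 4 lay above Jak2V617F array 2, and wild type arrays 2 and 4 also above Jak2V617F array 3. The means were 12.68 ± 0.12 in Jak2V617F arrays and 12.60 ± 0.09 in wild type arrays (SD, n = 4 each), a difference of 0.08, while the range within a genotype was 0.28 among Jak2V617F arrays and 0.22 among wild type arrays.

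Jak2V617F array 1 was the highest mutant array for 33 of the 43 genes, and Jak2V617F array 2 was the lowest for 34. Among wild type arrays, array 1 was the lowest for 33 genes. In Jak2V617F array 2, 40 of 43 genes lay below their genotype mean, where 53.8% of all genes did, and in wild type array 1 it was also 40 of 43, where 46.3% of all genes did. Without Jak2V617F array 1 the median change over the 43 genes was 0.04, against 0.05 over all genes. Without Jak2V617F array 2 it was 0.13, against 0.06 over all genes. Without wild type array 1 it was 0.05, with 28 of 43 genes above 0, and the median over all genes was then 0.06.

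**Figure D2:**
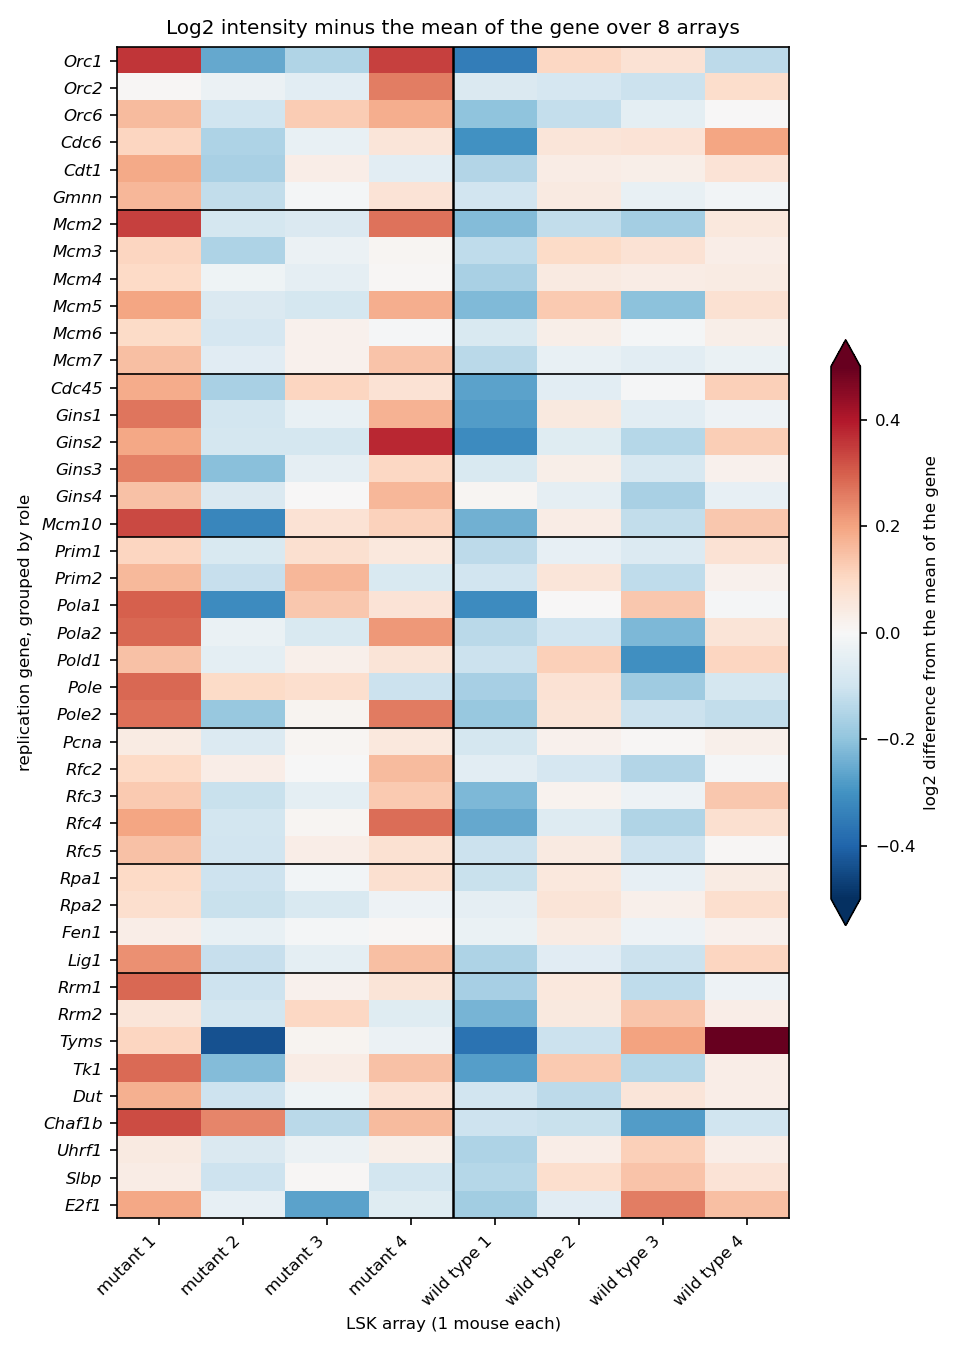
Log2 intensity of each replication gene in each array minus the mean of that gene over 8 arrays, Jak2V617F arrays left of the line. Colours stop at 0.5 in either direction, which Tyms passes in wild type array 4. Jak2V617F array 1 is high and Jak2V617F array 2 and wild type array 1 are low for most genes.

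After the genotype mean of each gene was subtracted, the Pearson correlation over the 8 arrays between pairs of replication genes had a median of 0.70, with quartiles of 0.47 and 0.82, and 96.7% of the 903 pairs were above 0. Each gene correlated with the mean of the other replication genes by a median of 0.86. Rpa1, a subunit of the single strand binding protein, had the highest value (0.97) and Chaf1b the lowest (0.21). Over all genes the median correlation with the replication mean was 0.02. Genes in 1 array share its cells, its RNA and its normalisation, and genes are not independent replicates. The correlation was alike in genes with an E2F-type match (median 0.87, 14 genes) and in the 21 measured genes of the promoter table without a match (median 0.88).

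Other measures of the arrays are given beside this spread. Kit, a gene of the sort, read 12.53 to 12.77 in Jak2V617F arrays and 12.52 to 12.82 in wild type arrays. Ly6a, which encodes Sca1, was not analysed here. Changes were above 0 for 11 of 12 measured erythroid markers, with an array mean of 10.15 to 10.96 in Jak2V617F cells and 9.55 to 10.19 in wild type cells. They were above 0 for 13 of 13 macrophage and dendritic cell markers, with an array mean of 9.10 to 9.61 in Jak2V617F cells and 8.51 to 9.07 in wild type cells. The same held for 10 of 12 granulocyte and monocyte markers (12.28 to 12.75 in Jak2V617F cells, 11.77 to 12.42 in wild type cells), 6 of 6 megakaryocyte markers (9.25 to 9.99 in Jak2V617F cells, 9.19 to 9.66 in wild type cells) and 6 of 7 T and NK cell markers (7.79 to 8.29 in Jak2V617F cells, 7.80 to 8.02 in wild type cells). B cell markers lay between 7.04 and 7.20 in Jak2V617F cells and between 7.01 and 7.17 in wild type cells, and the mean of 10 LSK markers between 12.55 and 12.78 in Jak2V617F cells and between 12.52 and 12.68 in wild type cells. That mean covers LSK markers that differed in both directions. Cd48 (0.35), a surface marker of multipotent progenitors, did not overlap and was higher in Jak2V617F arrays, and Mecom (-0.34), a stem cell transcription factor, and Cd34 (-0.12) did not overlap and were lower. That was 30% of the 10 LSK markers, against 10.1% of all genes (6.82% higher and 3.33% lower). Slamf1, a surface marker of stem cells, differed by 0.72 with overlapping arrays. None of these markers was called by limma over all genes, and an unadjusted limma p under 0.05, held by 17.2% of all genes, was found for 6 of 12 erythroid, 7 of 13 macrophage and dendritic cell, 4 of 7 T and NK cell (3 higher and 1 lower), 3 of 10 LSK, 2 of 6 megakaryocyte, 2 of 12 granulocyte and monocyte and 1 of 7 B cell markers. Within genotypes, the median correlation with the replication mean was -0.50 for megakaryocyte, -0.49 for erythroid and -0.47 for macrophage and dendritic cell markers. It was -0.42 for T and NK cell, -0.33 for LSK, -0.28 for B cell and 0.19 for granulocyte and monocyte markers. Jak2V617F array 2, the lowest mutant array for replication genes, was the highest for erythroid markers. Wild type array 1, the lowest of its genotype for replication genes, was not. It read 9.70 for erythroid markers, between wild type arrays 4 (9.55) and 2 (9.90). Jak2V617F array 2 and wild type array 1 were both the highest of their genotype for megakaryocyte markers (9.99 and 9.66). The same held for LSK markers (12.78 and 12.68), and for no other marker list. By Xist and Y-linked genes, 1 Jak2V617F array and 2 wild type arrays were female, and with sex as a covariate the median change over the replication genes was 0.08. The part of these measures, sex included, in the replication values was not tested.

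Origin recognition and licensing genes had changes from -0.01 to 0.18, with none called. Orc6, a subunit of the origin recognition complex, read 12.60, 12.35, 12.57 and 12.62 in Jak2V617F arrays, against 12.24, 12.32, 12.39 and 12.45 in wild type arrays. Jak2V617F arrays 1, 3 and 4 lay above every wild type array, and array 2 did not. The change was 0.18 ± 0.085 (SE; limma adjusted p = 0.308). Orc2, of the same complex, read 12.04, 12.01, 11.98 and 12.29 in Jak2V617F arrays and 11.96, 11.95, 11.93 and 12.12 in wild type arrays, a change of 0.09 ± 0.088 (SE; limma adjusted p = 0.609). The order of its arrays was mixed, with wild type array 4 above 3 of the Jak2V617F arrays. Further Orc2 probe sets differed by 0.20 ± 0.10 and by -0.0001 ± 0.13 (SE). Orc1, the largest subunit, had the widest range of the group over the 8 arrays. It ran from 9.32 to 9.93 in Jak2V617F arrays and from 9.23 to 9.68 in wild type arrays. The Orc1 change was 0.15 ± 0.17 (SE; limma adjusted p = 0.649). The loading factors Cdc6 (-0.01) and Cdt1 (0.00) and geminin, the inhibitor of Cdt1 (Gmnn, 0.05), lay at or under the median change of all genes. A further probe set of Cdt1 differed by 0.26 ± 0.13 (SE; limma adjusted p = 0.343).

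The 6 subunits of the Mcm2 to Mcm7 ring did not differ by genotype beyond their spread. Mcm2 read 13.26, 12.84, 12.85 and 13.19 in Jak2V617F arrays, against 12.70, 12.80, 12.75 and 12.97 in wild type arrays. High values stood in Jak2V617F arrays 1 and 4, and the other Jak2V617F arrays lay below wild type array 4. The change was 0.23 ± 0.12 (SE; limma adjusted p = 0.348, 95% interval -0.04 to 0.50), and a further Mcm2 probe set differed by 0.08. Mcm7 read 14.50, 14.29, 14.37 and 14.49 in Jak2V617F arrays and 14.21, 14.31, 14.29 and 14.31 in wild type arrays, a change of 0.13 ± 0.072 (SE; limma adjusted p = 0.384). Again 3 Jak2V617F arrays lay above all wild type arrays and array 2 did not. Its 3 further probe sets differed by 0.11, 0.14 and 0.20. The other subunits were at -0.03 (Mcm3), 0.02 (Mcm4), 0.11 (Mcm5) and 0.01 (Mcm6), and all 6 are parts of a ring that holds 1 copy of each.

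Helicase activation genes all had changes above 0, from 0.05 to 0.20, with none called. Gins2 read 12.31, 12.03, 12.03 and 12.49 in Jak2V617F arrays and 11.80, 12.05, 11.97 and 12.24 in wild type arrays, a change of 0.20 ± 0.13 (SE; limma adjusted p = 0.453). Its further probe set differed by the same 0.20. Gins4 read 12.50, 12.28, 12.36 and 12.52 in Jak2V617F arrays and 12.37, 12.31, 12.19 and 12.31 in wild type arrays, a change of 0.12 ± 0.079 (SE; limma adjusted p = 0.450). Both are subunits of the GINS complex, and for both the genotypes overlapped. Gins1, of the same complex, read 12.83, 12.47, 12.53 and 12.74 in Jak2V617F arrays and 12.29, 12.62, 12.51 and 12.54 in wild type arrays (0.16 ± 0.11, SE), while a dimmer probe set differed by -0.29 ± 0.25 (SE), with Jak2V617F array 2 at 6.49 and the other arrays of both genotypes between 7.42 and 7.81. Cdc45, Gins3 and Mcm10, which joins the helicase as it starts to unwind, differed by 0.10, 0.05 and 0.10.

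Primase and polymerase genes also lay above 0 in 7 of 7, from 0.07 to 0.20. Pola2, the accessory subunit of polymerase alpha, read 11.91, 11.58, 11.54 and 11.84 in Jak2V617F arrays, against 11.48, 11.52, 11.40 and 11.68 in wild type arrays. Wild type array 4 lay above Jak2V617F arrays 2 and 3. The change was 0.20 ± 0.11 (SE; limma adjusted p = 0.359). Pole, the catalytic subunit of the leading strand polymerase, read 12.60, 12.41, 12.40 and 12.20 in Jak2V617F arrays and 12.15, 12.38, 12.14 and 12.22 in wild type arrays, a change of 0.18 ± 0.098 (SE; limma adjusted p = 0.373). It followed the other replication genes less closely than most (r = 0.33), being lowest in Jak2V617F array 4 among the mutant arrays. Pole2, its partner, differed by 0.18, Pola1 and Pold1, the catalytic subunits of polymerases alpha and delta, by 0.09 each, and the primase genes Prim1 and Prim2 by 0.08 and 0.07.

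Among clamp and clamp loader genes, Rfc2 was the 1 replication gene whose arrays did not overlap in the brightest probe set. It read 13.74, 13.67, 13.634 and 13.80 in Jak2V617F arrays, against 13.59, 13.55, 13.49 and 13.631 in wild type arrays. The gap between the lowest mutant and the highest wild type array was smaller than the spread within either genotype. Its change of 0.14 ± 0.068 (SE) had a limma adjusted p of 0.314, and 2 further probe sets differed by 0.13 and 0.04. Rfc4 read 13.29, 13.00, 13.10 and 13.37 in Jak2V617F arrays and 12.84, 13.03, 12.95 and 13.18 in wild type arrays, a change of 0.20 ± 0.11 (SE; limma adjusted p = 0.368), and Rfc3 and Rfc5 of the same loader differed by 0.05 and 0.08. Pcna, the sliding clamp, was the brightest of the set and differed by 0.02, with a 95% interval of -0.13 to 0.16.

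**Figure D3:**
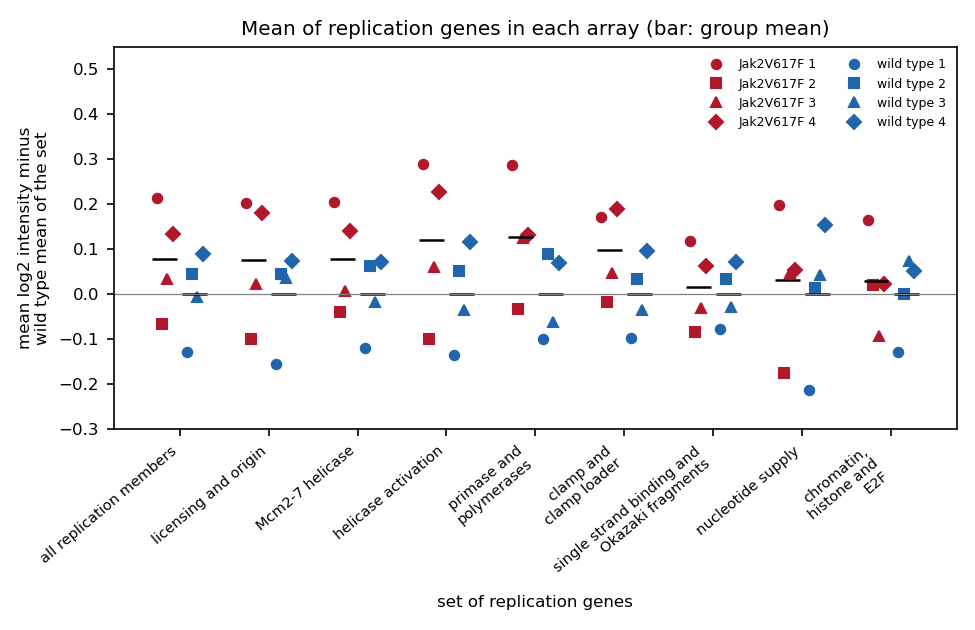
Mean log2 intensity of the replication genes and of each role group per array, minus the wild type mean of the same set, with a bar at each group mean. Jak2V617F arrays are left of wild type arrays, the genotypes overlap in every set, and wild type array 1 is the lowest of its genotype in all sets.

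Single strand binding and Okazaki fragment genes were the most level group, with a median change of 0.01. Rpa2, of the single strand binding protein, read 12.99, 12.79, 12.83 and 12.88 in Jak2V617F arrays and 12.86, 12.97, 12.93 and 12.99 in wild type arrays, a change of -0.06 ± 0.070 (SE; limma adjusted p = 0.636). Lig1, the ligase that joins Okazaki fragments, read 12.94, 12.60, 12.67 and 12.87 in Jak2V617F arrays and 12.56, 12.66, 12.61 and 12.82 in wild type arrays, a change of 0.11 ± 0.099 (SE; limma adjusted p = 0.586). Neither separated the genotypes. The flap nuclease gene Fen1 was at 14.42 ± 0.03 in Jak2V617F arrays and 14.43 ± 0.04 in wild type arrays (SD, n = 4 each). In the brightest probe sets that was the smallest spread of the genes named here. Rpa1 differed by 0.03.

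Of the nucleotide supply genes, Rrm2, the subunit of ribonucleotide reductase that limits it in S phase, gave the clearest disagreement between probe sets. The brightest probe set read 13.58, 13.42, 13.62 and 13.45 in Jak2V617F arrays and 13.28, 13.56, 13.65 and 13.55 in wild type arrays, a change of 0.01 ± 0.094 (SE; limma adjusted p = 0.977). The next in brightness read 11.70, 11.12, 11.67 and 11.63 in Jak2V617F arrays, against 11.83, 11.87, 12.14 and 12.37 in wild type arrays. All 4 mutant arrays lay below all wild type arrays there, with array 2 lowest. That change was -0.52 ± 0.16 (SE), not called by limma after adjustment over all singly named probe sets (adjusted p = 0.178). The dimmest of the 3 differed in the other direction, by 0.20 ± 0.15 (SE). Which part of the transcript each reads was not analysed here.

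**Figure D4:**
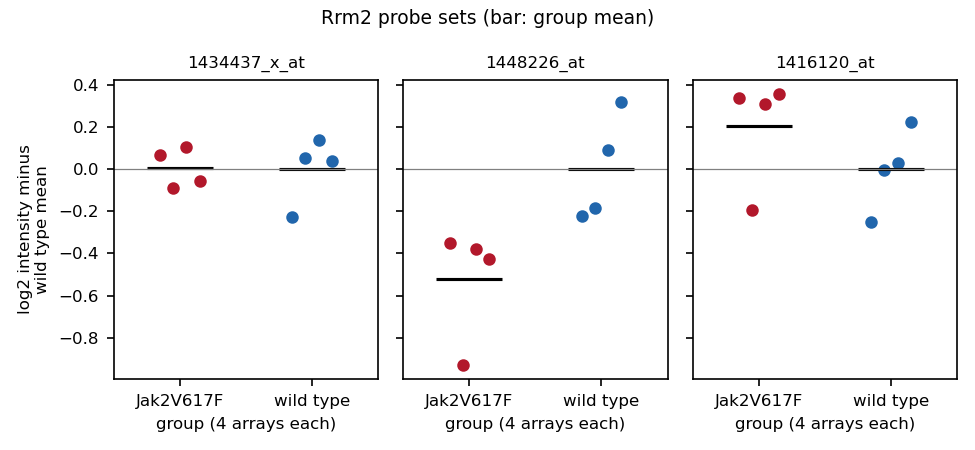
Log2 intensity of 3 Rrm2 probe sets minus the wild type mean, 4 Jak2V617F arrays left of 4 wild type arrays, with group means as bars. The means differ by 0.01, -0.52 and 0.20, and only the genotypes of the middle probe set do not overlap.

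The large subunit gene Rrm1 read 13.21, 12.82, 12.94 and 12.99 in Jak2V617F arrays and 12.76, 12.97, 12.79 and 12.90 in wild type arrays, a change of 0.13 ± 0.096 (SE; limma adjusted p = 0.479). Tk1, the S phase thymidine kinase, read 12.97, 12.47, 12.73 and 12.84 in Jak2V617F arrays and 12.42, 12.82, 12.55 and 12.73 in wild type arrays, a change of 0.12 ± 0.13 (SE; limma adjusted p = 0.619). Both were highest in Jak2V617F array 1 and lowest in wild type array 1, with the genotypes overlapping. Dut, which clears deoxyuridine triphosphate, differed by 0.07. Tyms had the lowest change of the set (-0.17 ± 0.21, SE) and the widest spread among wild type arrays, from 9.10 to 9.64 in Jak2V617F arrays and from 9.16 to 10.15 in wild type arrays.

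Chaf1b, a subunit of the chromatin assembly factor that places histones behind the fork, had the largest change of the 43 genes. It read 12.79, 12.70, 12.32 and 12.62 in Jak2V617F arrays, against 12.36, 12.35, 12.18 and 12.36 in wild type arrays. Jak2V617F arrays 1, 2 and 4 lay above every wild type array, and array 3 lay within them. The change was 0.30 ± 0.11 (SE), or 1.23-fold, with an unadjusted limma p of 0.0207 and a limma adjusted p of 0.226. It was 0.24 to 0.39 with single arrays left out, highest without Jak2V617F array 3. A further, dim Chaf1b probe set (mean 5.69) differed by 0.27 ± 0.093 (SE; limma adjusted p = 0.211 over all singly named probe sets). There all Jak2V617F arrays lay above all wild type arrays. Chaf1b did not share the low values of Jak2V617F array 2 seen in most replication genes.

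Slbp, which binds the stem loop of histone messenger RNA, read 13.37, 13.23, 13.34 and 13.24 in Jak2V617F arrays and 13.19, 13.42, 13.48 and 13.40 in wild type arrays (-0.08 ± 0.081, SE; limma adjusted p = 0.629). Uhrf1, which carries DNA methylation through replication, differed by -0.01. E2f1, the transcription factor, read 11.26, 11.03, 10.80 and 11.01 in Jak2V617F arrays and 10.90, 11.02, 11.33 and 11.22 in wild type arrays, a change of -0.09 ± 0.12 (SE; limma adjusted p = 0.725), and a dimmer E2f1 probe set differed by 0.31 ± 0.15 (SE). Neither direction was called by limma. Over the whole set, 39 further probe sets of 30 of these genes were brighter than the median probe set. None of them was called, and 1 (that of Rrm2) had an unadjusted limma p under 0.05, against 17.2% of all genes. Of the 39, 28 were above 0, against 62.6% of all genes, and 24 pointed the same way as the chosen probe set.

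No gene of 6 related lists that act beside the replication set was called over all genes. Of 41 measured further replication factors, 8 were higher and 2 lower at an unadjusted limma p under 0.05, against 11.9% higher and 5.23% lower over all genes. Their median change of 0.09 equalled that of the 43 replication genes to 2 decimals. Pole3, a histone fold subunit of polymerase epsilon, read 11.64, 11.55, 11.74 and 11.83 in Jak2V617F arrays, against 11.26, 11.24, 11.29 and 11.53 in wild type arrays. Pole4, its histone fold partner, read 12.22, 11.96, 12.11 and 12.08 in Jak2V617F arrays, against 12.33, 12.35, 12.35 and 12.35 in wild type arrays. The genotypes did not overlap for either gene, and the changes pointed in opposite directions, 0.36 ± 0.093 and -0.25 ± 0.071 (SE; limma adjusted p = 0.138 and 0.166). Over the 41 factors, arrays did not overlap for 2 higher genes, Pole3 and Asf1a (0.20), and 1 lower gene, Pole4. That was 7.32% of the list, against 10.1% of all genes. Further bright probe sets were at 0.15 for Pole3 and 0.08 for Pole4, so the Pole4 direction was not shared. Mtbp, a factor in origin firing, differed by 0.31 (limma adjusted p = 0.220).

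Among 19 cyclins, kinases and inhibitors of S phase entry, arrays did not overlap for 1 gene, Ccne1 (5.26%). Among 18 E2F, retinoblastoma and MuvB genes they did not overlap for 2, Rbl2 and Lin52 (11.1%). The share over all genes was 10.1%, and no gene of either list was called. Ccne1, cyclin E1, which drives entry into S phase with Cdk2, read 10.34, 10.30, 10.33 and 10.55 in Jak2V617F arrays, against 9.85, 10.07, 9.92 and 10.17 in wild type arrays. All mutant arrays lay above all wild type arrays, with a change of 0.38 ± 0.094 (SE; limma adjusted p = 0.134), and a further probe set differed by 0.17. Of 19 such cyclins, kinases and inhibitors it was the 1 with an unadjusted limma p under 0.05 (5.26%, against 17.2% of all genes), and the next by p were the inhibitor genes Cdkn1a (0.21) and Cdkn2d (-0.12). A further, bright probe set of Cdkn1a differed by 0.38 ± 0.15 (SE), with an unadjusted limma p under 0.05. Rbl2, the retinoblastoma relative p130 that holds E2F genes silent in quiescent cells, read 11.05, 11.35, 11.39 and 10.93 in Jak2V617F arrays, against 11.55, 11.62, 11.63 and 11.59 in wild type arrays. Its change of -0.42 ± 0.11 (SE; limma adjusted p = 0.138) stood beside -0.39 in a further probe set. Lin52, of the complex that p130 joins, differed by -0.51 (limma adjusted p = 0.138) at a level near the median probe set, and its further, dim probe set by 0.33. Tfdp2, an E2F partner, differed by -0.20, while its 2 further bright probe sets were at 0.05 and 0.08 and a dim one at -0.23. In that list of 18 E2F, retinoblastoma and MuvB genes, 4 were lower and 0 higher at an unadjusted limma p under 0.05 (22.2%, against 17.2% of all genes), with a median change of -0.03.

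**Figure D5:**
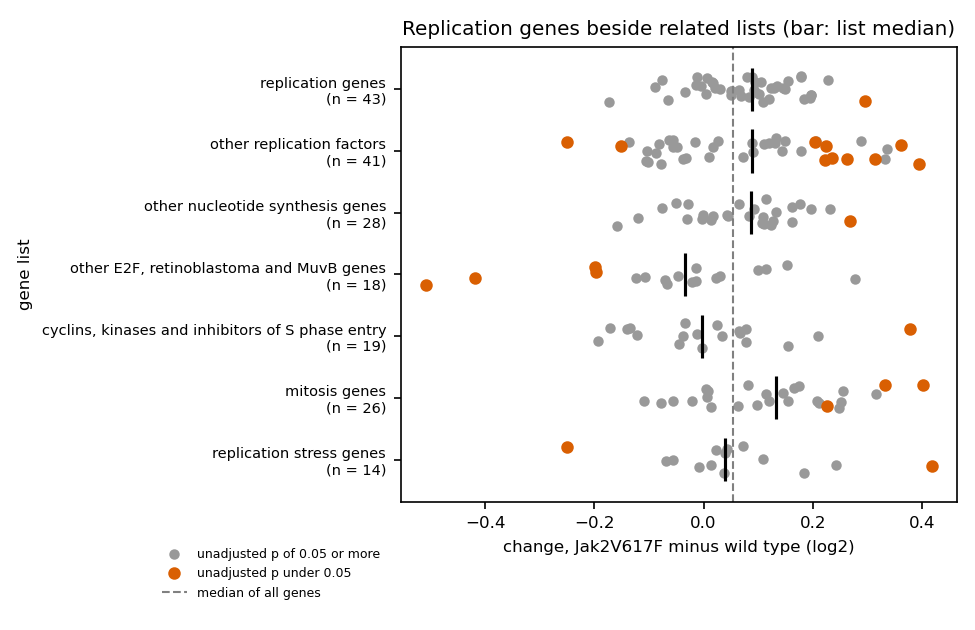
Change in log2 units, Jak2V617F minus wild type, of the replication genes and of 6 related lists, with a bar at each list median and a dashed line at the median of all genes. The 43 replication genes lie between -0.17 and 0.30 with 1 orange point, while further replication factors reach -0.25 and 0.40 with 10.

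In 28 nucleotide synthesis genes outside the set the median was 0.09, with Tk2 (0.27), Dhodh (0.23) and Adsl (0.20) first by p and 1 of 28 with an unadjusted limma p under 0.05 (3.57%, against 17.2% of all genes). Changes of mitosis genes were above 0 in 22 of 26, with a median of 0.13 and 3 of 26 with an unadjusted limma p under 0.05 (11.5%, against 17.2% of all genes), namely Cdc20 (0.23), Plk1 (0.40) and Kif20a (0.33). Replication stress genes had a median of 0.04, and 2 of 14 had an unadjusted limma p under 0.05 (14.3%, against 17.2% of all genes). Among them Blm, a helicase that resolves stalled forks, differed by 0.42 ± 0.14 (SE; limma adjusted p = 0.204), Wee1, the kinase that restrains Cdk activity, by -0.25 ± 0.078 (SE; limma adjusted p = 0.194), and Atrip by 0.18. Within genotypes, further replication factors correlated with the replication mean by a median of 0.72, replication stress genes by 0.72 and mitosis genes by 0.54, against 0.02 over all genes. Differences between these lists and the 43 genes were not tested.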

How the data were processed

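RNA was amplified linearly before hybridisation to Affymetrix mouse expression arrays, per the labels' protocols. The deposited log2 intensities came from RMA, which corrects background, equalises the distributions of the arrays and summarises probe sets. The submitters' processing notes list RMA, affy and R 2.11.0, and that the unit is log2 follows from the range of the values. That step of equalising hides a shift shared by most transcripts, and scan batches were not analysed here.

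Of 45101 probe sets, 64 were controls, 34945 named 1 gene in the platform annotation, 932 named several and 9160 were unnamed here. Genes (18193) were tested with limma 3.58.1 in R 4.3.3 over all 8 arrays, Jak2V617F minus wild type, two-sided, without covariates, with Benjamini-Hochberg adjustment over all genes. Intervals are limma's unadjusted 95% intervals. The number of arrays limits precision. Scripts were tested on simulated data.

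The genes, lists and alternatives were chosen with earlier results of these data known. Values in every array are given for genes whose genotypes did not overlap, for the 2 of each role group with the smallest p, and where a further probe set brighter than 7.11 changed the other way by over 0.2. Of related lists, the 3 genes with the smallest p are named. Other genes, and the promoters of Orc1, Cdc6, Mcm5 and Mcm6, were chosen after their values were seen. Promoter sequences are from RefSeq (GRCm38.p6).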

Additional observations from a re-analysis of the deposited data

Results flagged for a closer look

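Chaf1b read 12.18 in wild type array 3, far below the other wild type arrays, whose nearest value was 12.35. The mean of the licensing and origin genes was 11.90 in wild type array 1, with the nearest wild type array at 12.09. Over 56 groups of 4 arrays looked at, 2 held such a value, and chance gives about 1 in 20.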

How the results depend on the processing

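No replication gene was called in any of the 17 alternatives, and the median change over the set stayed above 0. It was between 0.07 and 0.10 with other processing and between 0.04 and 0.13 with single arrays left out. That median fell below that of all genes without Jak2V617F array 1 (0.045 against 0.051) and without wild type array 1 (0.048 against 0.062). Genes of the set with an unadjusted limma p under 0.05 numbered 3 with dim genes left out, 2 of 39 without probe sets in _s_at, _x_at and _a_at, 6 with a trended robust prior (17.2% of all genes), 3 of 96 over all singly named probe sets, and 0 to 4 with single arrays left out. Over all genes the count of calls was 30, against 60 with sex in the model, 60 over all singly named probe sets, 75 under the trended robust prior, 49 for means of probe sets and 13 to 40 with single arrays left out. With the replicate number as a block it was 8. The numbers were not taken to pair the mice, since deviations of same-numbered arrays correlated by -0.02, -0.22, -0.06 and 0.10, and the block called no replication gene.

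Of 302 checks on the 19 genes given in every array, 293 kept their direction. With probe sets averaged, E2f1 was 0.11, Gins1 -0.066 and Rrm2 -0.10. Rrm2, near 0, was also -0.011 after median centring, -0.52 without _s_at, _x_at and _a_at probe sets, where another probe set is read, -0.0043 with sex as a covariate and between -0.069 and 0.053 with single arrays left out. Precision is set by the 4 arrays per genotype: the intervals reached a median of 0.22 to either side of the change.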
